A study of Mus musculus with 34 samples.

Results

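The mouse mitochondrial genome carries 37 genes, and all 37 were present among the 48526 rows of the count table. They were chosen by a gene symbol that begins with mt- in GENCODE M21: 13 genes for mRNAs, 2 for ribosomal RNAs (rRNAs) and 22 for transfer RNAs (tRNAs). The values come from splenic pan T cells of C57BL/6 mice aged 6 to 12 weeks, isolated by negative selection. WT cells were sampled unstimulated (day 0, 2 libraries). Others were stimulated through CD3 and CD28 with antibodies, in the presence of recombinant IL-2, and sampled at 24 h (day 1) and 72 h (day 3). On each of these days there were 2 libraries from WT mice and 2 from mice labelled CD28 KO, and 3 each from mice labelled Ars2 KO, CD28 AYAA, CD28 Y170F and DKI. CD28 is the receptor that gives T cells the costimulatory signal, and ARS2, encoded by Srrt, works with the nuclear cap-binding complex on newly made capped RNA. The design text calls the DKI line CD28 DKI, and neither it nor the labels say what DKI changes, or whether a deletion is limited to T cells. Replicates are called biological in the design text.

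Both strands of the mitochondrial genome are transcribed from end to end into long precursors, and the tRNAs that lie between the other genes are cut out to release mRNAs and rRNAs. The mRNAs encode core subunits of the respiratory chain and of the ATP synthase: mt-Nd1 to mt-Nd6 and mt-Nd4l belong to complex I, mt-Cytb to complex III, mt-Co1 to mt-Co3 to complex IV (cytochrome c oxidase) and mt-Atp6 and mt-Atp8 to the ATP synthase. All other subunits, and the polymerase, nucleases and RNA-binding proteins that make and degrade mitochondrial RNA, are encoded in the nucleus, and activated T cells are known to enlarge their mitochondrial mass and to remodel their metabolism.

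Total counts were 47.8 and 44.0 M at day 0 and 8.35 to 32.04 M in the 32 stimulated libraries. The 8 libraries under 12 M were all 6 DKI libraries and WT number 4 at both days. The 11 T cell markers summed to between 2400 and 3934 counts per M (CPM) over all 34 libraries. Markers of B cells summed to 1103 and 1121 CPM at day 0 and to 6.67 to 108 CPM after stimulation, and those of myeloid cells to 293 and 302 CPM and 6.88 to 42.8 CPM. Srrt was lower in Ars2 KO than in WT at day 1 (log2 fold change -2.09, SE 0.23, edgeR adjusted p = 1.9e-05) and at day 3 (-0.71, SE 0.23, adjusted p = 0.0419). Cd28 in the libraries labelled CD28 KO was not lower than in WT at day 1 (0.26, SE 0.18, adjusted p = 0.236) and was lower at day 3 (-1.32, SE 0.18, adjusted p = 1.58e-05). A count over the whole gene need not report the deleted piece, so the Cd28 count does not check that label. In bulk RNA, fewer cells of a type and less RNA per cell cannot be told apart.

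The reading of single members depended on where the genes lie. Several share bases with a neighbour, and several have a copy in the nuclear genome. Among the mRNA genes, mt-Atp6 and mt-Co3 shared 1 base, and mt-Nd5 and mt-Nd6, on opposite strands, shared 14. The longest overlaps on 1 strand of chrM (GRCm38) were mt-Atp8 with mt-Atp6 and mt-Nd4l with mt-Nd4. Their junctions are shown because reads from them belong to both genes. Capitals mark the shared bases, 43 for the first pair and 7 for the second.
mt-Atp8/mt-Atp6 junction, chrM:7912-7984, plus strand: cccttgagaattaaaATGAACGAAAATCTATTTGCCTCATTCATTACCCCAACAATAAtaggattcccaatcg
mt-Nd4l/mt-Nd4 junction, chrM:10152-10188, plus strand: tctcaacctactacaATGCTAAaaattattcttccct
A block of chromosome 1 (24611535 to 24616197, minus strand) holds nuclear copies of 7 of the mRNA genes, annotated under predicted-gene names. The copies of mt-Co2 (681 bases compared), mt-Atp6 (678), mt-Co3 (783) and mt-Nd4l (294) had 0 differences from the mitochondrial genes, and the copy of mt-Nd3 had 1 in 345 bases (T3C, counted from the first base of the mitochondrial gene). The first bases of mt-Co2 and of its copy Gm28661 are shown because a read from them fits both places equally well, and those of mt-Nd3 and its copy Gm28438 because they hold the single difference, in capitals.
mt-Co2, chrM:7013-7072, plus strand: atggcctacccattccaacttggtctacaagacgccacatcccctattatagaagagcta
Gm28661, chr1:24615506-24615565, minus strand: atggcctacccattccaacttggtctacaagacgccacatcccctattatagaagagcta
mt-Nd3, chrM:9459-9491, plus strand: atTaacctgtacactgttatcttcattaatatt
Gm28438, chr1:24613087-24613119, minus strand: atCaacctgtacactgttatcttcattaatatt

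The authors' estimates had divided the reads of such pairs between the copies, and the division moved from library to library. Of the reads assigned to mt-Co2 and its copy together, 94.5 to 99.3% stood at the nuclear copy (median of 34 libraries 97.4%). The nuclear share was 76.0 to 97.4% for mt-Co3 (median 88.4%), 62.4 to 89.1% for mt-Atp6 (77.6%), 35.8 to 79.5% for mt-Nd4l (61.9%) and 0.0950 to 60.7% for mt-Nd3 (21.4%). For mt-Co1, of which the copy Gm29216 covers a part, it was 4.76 and 6.23% at day 0 and at most 1.48% after stimulation. Adding the counts of gene and copy narrowed the spread between replicates for these 5 genes but not for mt-Co1. The median coefficient of variation within groups went from 21.4 to 5.97% for mt-Co2, from 28.5 to 3.99% for mt-Co3, from 18.4 to 8.14% for mt-Atp6, from 21.2 to 6.22% for mt-Nd4l and from 19.7 to 13.4% for mt-Nd3. For mt-Co1 it went from 2.68 to 3.25%. It was 6.89% for mt-Nd1 and 4.88% for mt-Cytb, which have no copy here. The tests below use the gene rows as deposited unless a value is called summed, which means that the counts of the nuclear copies were added to the gene, a setting chosen after the data were seen. Levels are summed values in CPM.

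**Figure D1:**
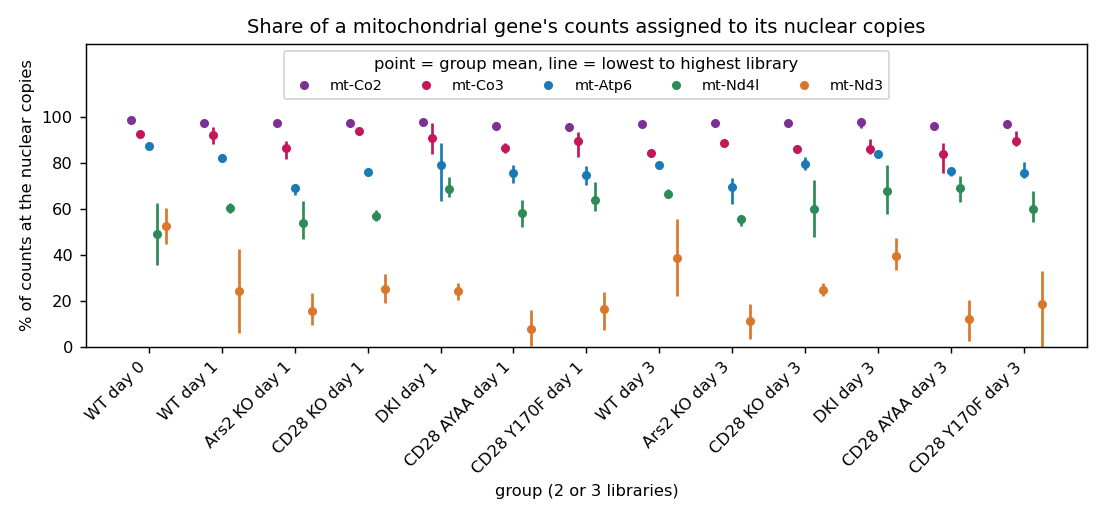
Percent of a gene's summed counts that stood at its nuclear copies, for the 13 groups of 2 or 3 libraries. Points are group means and lines run from the lowest to the highest library. The share at the copy of mt-Co2 was at least 94.5% in every library, and that of mt-Nd3 ran from 0.0950 to 60.7%.

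The 13 mRNAs together held 1.16 and 1.18% of the counts at day 0 and 1.49 to 2.10% after stimulation. With the copies added they held 1.89 and 1.96% at day 0 and 2.10 to 2.90% after stimulation. Their summed level was 22074 and 23753 CPM at day 0, 24839 and 22646 in WT at day 1 and 28208 and 26848 in WT at day 3. Over the 32 stimulated libraries it ran from 18971 CPM, in CD28 KO number 1 at day 1, to 29880 CPM, in CD28 Y170F number 2 at day 3, with a median of 23678. Mitochondrial rRNA took up 17.2 and 17.5% of the day 0 counts, which lowers the shares of all other genes there. The sum with copies was also set against counts of nuclear protein-coding genes. Per M of these it was 30754 and 32582 at day 0 and 30586 and 28390 in WT at day 1. In WT at day 3 it was 31108 and 31460. On this scale no WT value after stimulation exceeded both day 0 values. Within this sum the genes were unequal. On a scale per kb of transcript length, mt-Co1 was the highest and mt-Nd6, the 1 mRNA of the other strand, the lowest in each of the 13 groups. The ratio between them was 60.97 at day 0 (6410 against 105 CPM per kb), 9.05 in WT at day 1 (4348 against 480), 10.6 in WT at day 3 and 7.98 to 13.2 over the 12 stimulated groups. In WT at day 0, mt-Co3 followed mt-Co1 with 5922 CPM per kb, then mt-Co2 with 3667 and mt-Atp6 with 2422, while mt-Nd5, mt-Nd4l and mt-Nd6 were the lowest 3 with 184, 112 and 105. In WT at day 1 the highest 4 were the same genes, at 4348, 3584 (mt-Co2), 3284 (mt-Co3) and 2961 (mt-Atp6), and mt-Nd5 stood at 1118.

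**Figure D2:**
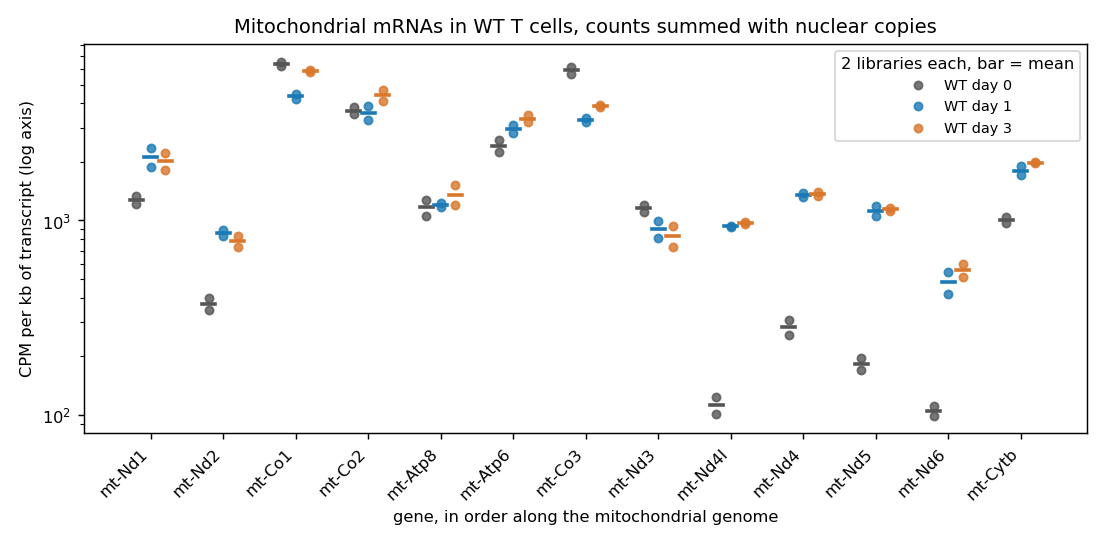
Levels of the 13 mRNAs per kb of transcript (CPM per kb, log axis, nuclear copies added) in WT at day 0, day 1 and day 3, in order along the mitochondrial genome, with 1 point per library and bars at the means of 2. The day 0 points of mt-Nd4l, mt-Nd4, mt-Nd5 and mt-Nd6 lie below all stimulated points of these genes.

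Stimulated WT cells were set against unstimulated ones, the reference that the design text names, and single mRNAs moved in both directions. The day 0 libraries were also deeper and held far more mitochondrial rRNA, 17.2 and 17.5% of counts against at most 0.180% after stimulation. This difference in library make-up goes with the day, and its part in the changes from day 0 was not tested. At day 1, 8 of the 13 were higher than at day 0 and 1 was lower (edgeR quasi-likelihood test, adjusted p under 0.05), where 51.3% of all genes tested were called, 24.2% higher and 27.2% lower. At day 3, 9 were higher and 0 lower, where 50.5% of all genes were called and 23.5% were higher. Such shares of all genes tested are called the background from here on, and adding the nuclear copies moved them little. Both comparisons share the 2 day 0 libraries. The 4 neighbouring genes mt-Nd4l, mt-Nd4, mt-Nd5 and mt-Nd6 (chrM:9877-14070), all for membrane subunits of complex I, showed the largest differences. The level of mt-Nd5 was 312 and 358 CPM at day 0, 2154 and 1924 at day 1 and 2111 and 2047 at day 3. All 4 stimulated values were far above both day 0 values. mt-Nd5 rose by 2.61 (log2 fold change, SE 0.13, edgeR adjusted p = 2.29e-14) by day 1 and by 2.63 (SE 0.13, adjusted p = 1.02e-14) by day 3. mt-Nd4 went from 356 and 423 CPM to 1904 and 1822 and to 1841 and 1935, a rise of 2.26 (SE 0.13, adjusted p = 3.37e-13) and 2.27 (SE 0.13, adjusted p = 1.89e-13). The groups did not overlap for it either. mt-Nd6 was at 51.4 and 57.7 CPM at day 0, 218 and 281 at day 1 and 265 and 309 at day 3, and rose by 2.19 (SE 0.23, edgeR adjusted p = 2.82e-08) and 2.40 (SE 0.23, adjusted p = 4.75e-09). mt-Nd6 is encoded on the strand opposite to the other 3. Since the strand setting of the counting is not stated, reads of mt-Nd6 and of opposite-strand RNA cannot be told apart. Summed mt-Nd4l was at 30.004 and 36.6 CPM, then 279.9 and 274, then 286 and 293, and rose by 3.06 (SE 0.15, adjusted p = 1.9e-14) and 3.12 (SE 0.15, adjusted p = 7.68e-15).

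Other complex I genes moved less. mt-Nd2 stood at 362 and 412 CPM at day 0, 933 and 868 at day 1 and 860.0 and 760.0 at day 3, and rose by 1.22 (SE 0.19, edgeR adjusted p = 6.6e-06) and 1.07 (SE 0.19, adjusted p = 3.2e-05). mt-Nd1 stood at 1167 and 1272 CPM, then 2254 and 1803, then 2130.5 and 1743, a rise of 0.73 (SE 0.14, adjusted p = 0.000105) and 0.67 (SE 0.14, adjusted p = 0.000281). For both genes the stimulated libraries lay above day 0 without overlap. mt-Cytb, of complex III, went from 1111 and 1189 CPM to 2181 and 1952 and to 2249 and 2296, and rose by 0.85 (SE 0.13, adjusted p = 8.26e-06) and 0.98 (SE 0.13, adjusted p = 8.15e-07).

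The complex IV genes did not follow this pattern. mt-Co1 was at 9676 and 10131 CPM at day 0, 6923 and 6513 at day 1 and 9172 and 8948 at day 3. It was lowest at day 1, with no overlap with day 0. mt-Co1 fell by 0.48 on the log2 scale (SE 0.09, edgeR adjusted p = 0.000104) by day 1; without TMM scaling, on total counts, the fold change was -0.16 (adjusted p = 0.148). Its share of all mRNA counts was 43.8 and 42.7% at day 0 and 25.4 to 34.3% in the stimulated libraries, a ratio that no scaling between libraries enters. Summed mt-Co3 was at 4468 and 4817 CPM, then 2627 and 2522, then 3095 and 3012, and fell by 0.85 (SE 0.08, edgeR adjusted p = 8.46e-09) and 0.60 (SE 0.08, adjusted p = 1.37e-06). Summed mt-Co2 was at 2402 and 2614 CPM at day 0, 2656 and 2247 at day 1 and 3197 and 2828 at day 3, with a fold change of -0.03 at day 1 and a rise of 0.26 (adjusted p = 0.0416) at day 3. These fold changes of mt-Co2 differ from those of the row as deposited. Without its copy, mt-Co2 was at 21.03 and 28.5 CPM at day 0 and 104 and 66.6 at day 3, and its call at day 3 (1.79, SE 0.69, adjusted p = 0.0321) rests on that row and was lost without WT number 1 at day 3 or without either day 0 library. mt-Atp6 as deposited was called at both days (0.82, adjusted p = 0.0462, and 1.23, adjusted p = 0.00431), while summed it went from 1539 and 1760.4 CPM to 2116 and 1917 and was not called at day 1 (0.29, SE 0.13, adjusted p = 0.0726) and was called at day 3 (0.46, adjusted p = 0.00556). The day 1 call of mt-Atp6 as deposited was also lost without either day 0 library or WT number 1, and the day 3 call without day 0 number 1. mt-Atp8, which overlaps it, was at 216 and 260.1 CPM at day 0 and 249.7 and 238 at day 1 (0.04, not called). Over the 13 mRNAs as deposited the median log2 fold change was 0.85 at day 1 and 1.07 at day 3, and over all genes tested it was -0.02 and -0.07.

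Of 71 nuclear subunit genes of complexes I, III and IV and the ATP synthase, 18 rose and 4 fell at day 1 (median 0.22), where 24.2% of all genes were higher and 27.2% lower, so the number that rose was near the background. At day 3, 39 rose and 2 fell (median 0.36), where 23.5% of all genes were higher. Among them, Uqcrq, a small subunit of complex III, rose by 1.502 at day 1 and Uqcrh, the hinge subunit of the same complex, fell by 0.66. Of 20 genes for processing, stability and decay of mitochondrial RNA, 10 rose and 3 fell at day 1, and 2 rose and 8 fell at day 3. Day 1 risers included Grsf1 (0.53), an RNA-binding protein of mitochondrial RNA granules, and Mtpap (0.38), the mitochondrial poly(A) polymerase. Of 16 genes for transcription and replication of mitochondrial DNA, 6 rose and 3 fell at day 1. Mgme1, an exonuclease of mitochondrial DNA, rose by 1.16 and Twnk, the replicative helicase, by 0.56, while the polymerase gene Polg fell by 0.33. Of 16 genes for mitochondrial rRNA modification and ribosome assembly 2 rose and 2 fell, and of 17 genes for mitochondrial aminoacyl tRNA synthetases 3 rose and 4 fell. Among 10 regulators of mitochondrial biogenesis 4 rose and 2 fell, with Myc up by 2.28 and Pprc1, a coactivator, by 2.23. The sums of B cell and myeloid markers were lower after stimulation, by the values given above. Erythroid markers summed to 108 and 392 CPM at day 0 and 1.36 and 37.2 CPM in WT at day 1, and plasma cell markers to 300.1 and 479 CPM and then 116 and 134 CPM. The part of these cells in the differences from day 0 was not tested.

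The 2 rRNAs set day 0 apart in another way. mt-Rnr1, the small-subunit rRNA (chrM:70-1024), had counts of 626563 and 561630 at day 0, and mt-Rnr2, the large-subunit rRNA (chrM:1094-2675), had 7577310 and 7144660. Together they were 17.2 and 17.5% of all counts at day 0. In the 32 stimulated libraries they were 0.00340 to 0.180% (median 0.0148%), and no stimulated library came near the day 0 values. mt-Rnr2 fell by 11.16 on the log2 scale in WT at day 1 (SE 1.48, edgeR adjusted p = 9.18e-07) and mt-Rnr1 by 10.92 (SE 2.43, adjusted p = 0.000549), with like values at day 3 (-10.27 and -10.21). The kit removes rRNA before sequencing, so these counts measure what was left of the rRNA and not its level in the cells. A row annotated as nuclear rRNA, CT010467.1, did not set day 0 apart to the same extent: it held 0.223 and 0.985% of the counts at day 0 and 0.112 to 0.850% after stimulation.

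The proportion between the rRNAs also moved. The count ratio of mt-Rnr1 to mt-Rnr2 was 0.0827 and 0.0786 at day 0 and 0.0662 to 1.24 after stimulation, with a median of 0.200. CD28 AYAA number 3 had the highest ratio at both days, 1.24 at day 1 (20853 against 16853 counts) and 0.995 at day 3 (23855 against 23966 counts). The other CD28 AYAA libraries did not share it. The next highest ratios came from 5 other groups: 0.658 in CD28 KO at day 3, 0.642 in CD28 Y170F at day 1, 0.612 in Ars2 KO at day 1, 0.606 in Ars2 KO at day 3 and 0.513 in CD28 Y170F at day 3. In none of the comparisons between genotypes or between days 1 and 3 was an rRNA called. mt-Rnr1 in CD28 AYAA against WT at day 3, for example, differed by 4.63 with an SE of 1.83 (edgeR adjusted p = 0.073). The 8 libraries under 12 M held 0.00340 to 0.0150% rRNA (median 0.00896%). The other 24 stimulated libraries held 0.00911 to 0.180% (median 0.0174%), so the ranges overlapped. In WT, number 1 and number 4, the latter under 12 M, held 0.00992 and 0.00913% at day 1 and 0.0185 and 0.0128% at day 3. All DKI libraries are among the 8, so depth and genotype cannot be told apart there.

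**Figure D3:**
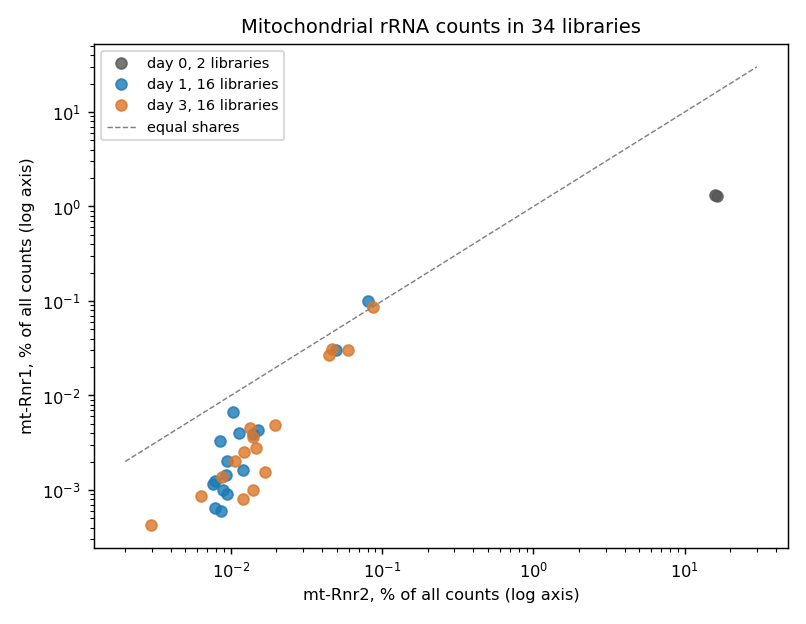
Percent of all counts at mt-Rnr1 against that at mt-Rnr2 (both log axes), 1 point per library, coloured by day, with a dashed line at equal shares. The 2 day 0 libraries stand alone at 17.2 and 17.5% in sum, the stimulated libraries spread from 0.00340 to 0.180%, and the 2 points at the line are CD28 AYAA number 3 at day 1 and at day 3.

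The 22 tRNA genes had 1774 counts in all 34 libraries together. The genes are 59 to 75 bases long and the reads 100, so a full-length read is longer than any of them. Of these counts, 1689 (95.2%) stood at the 8 tRNA genes of the minus strand and 85 (4.79%) at the 14 of the plus strand. On the minus strand each gene had counts, and on the plus strand 6 had none (mt-Tf, mt-Tv, mt-Ti, mt-Td, mt-Tk and mt-Ts2). mt-Ts1, a serine tRNA, had 1198 counts, spread over 31 libraries with at most 90 in 1 library, and mt-Tn, an asparagine tRNA, had 165 over 27 libraries. mt-Ty and mt-Tc followed with 97 and 83. The mt-Ts1 gene lies on the minus strand and ends in 3 bases that pair with the last bases of mt-Co1; its sequence is shown because it holds most of the tRNA counts, and capitals mark those 3 bases. The strand setting of the counting is not stated, so reads of a tRNA and of the precursor that runs across it on either strand cannot be told apart.
mt-Ts1, chrM:6870-6938, minus strand: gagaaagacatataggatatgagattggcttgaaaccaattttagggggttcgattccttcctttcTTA

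Both day 0 libraries had 0 tRNA counts, which allows up to 0.0628 and 0.0682 counts per M. mt-Ts1 had 57 counts in WT number 1 and 5 in WT number 4 at day 1, and 59 and 5 at day 3. Against the higher of the 2 limits, the observed mt-Ts1 value in WT number 1 was 31.7-fold higher at day 1 and 34.3-fold higher at day 3. In WT number 4, from 5 counts at each day, it was 7.04-fold and 7.29-fold higher. These ratios bound the day 0 value alone. They leave out the counting error of the stimulated counts, which is large at 5 counts. WT number 4 is under 12 M at both days. mt-Tn had 10 counts in WT number 1 and 0 in number 4 at day 1, and 8 and 1 at day 3. Low-depth libraries had fewer tRNA counts per M as well as fewer counts: 0.102 to 1.62 per M (median 0.689) in the 8 libraries under 12 M and 1.29 to 4.70 (median 3.09) in the other 24 stimulated ones. All 6 DKI libraries were among the 8. mt-Ts1 was lower in DKI than in WT at day 3 (-2.26, SE 0.70, edgeR adjusted p = 0.0209), a call that was lost when the depth batch was a term and when only the groups compared were fitted. The limits and floors for counts of 0 cover counting error only.

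At day 1 complex I genes were lower in the libraries labelled CD28 KO than in WT. There, 6 of the 13 mRNAs were lower and 0 higher, where 43.3% of all genes were called and 24.7% were lower. All 6 encode complex I subunits. mt-Nd1 was at 2254 and 1803 CPM in WT and 1058 and 1144 in the libraries labelled CD28 KO, with no overlap, and fell by 0.88 (log2, SE 0.14, edgeR adjusted p = 1.88e-05). mt-Nd2 was at 933 and 868 CPM in WT and 544 and 596 in CD28 KO, and fell by 0.66 (SE 0.18, adjusted p = 0.00521). mt-Nd6 was at 218 and 281 against 154 and 161 CPM and fell by 0.66 (SE 0.22, adjusted p = 0.0192). The groups did not overlap for these genes. mt-Nd3 as deposited was at 324 and 163 CPM in WT and 109.7 and 151 in CD28 KO and fell by 0.90 (SE 0.32, adjusted p = 0.023); summed, it was at 344 and 284 against 161 and 187 CPM (-0.85, SE 0.20, adjusted p = 0.00105). mt-Nd5 fell by 0.44 (SE 0.12, adjusted p = 0.004), from 2154 and 1924 to 1493 and 1513 CPM, and mt-Nd4 by 0.35 (SE 0.12, adjusted p = 0.0219), from 1904 and 1822 to 1387 and 1537 CPM. The seventh complex I gene, mt-Nd4l, had a fold change of -0.14, mt-Cytb of -0.22 and mt-Co1 of -0.13, none of them called. mt-Cytb and mt-Co1 lay below WT without overlap, but the share of all genes without overlap was not counted. The sum of all mitochondrial mRNAs with copies was 18971 and 19615 CPM in CD28 KO, against 24839 and 22646 in WT. Its size depended on the scaling. Per M counts of nuclear protein-coding genes it was 26766 and 27092 in CD28 KO and 30586 and 28390 in WT. Summed with copies, 8 genes were lower, with mt-Co2 (-0.28, SE 0.11, adjusted p = 0.037) and mt-Co3 (-0.34, SE 0.08, adjusted p = 0.00197) added. Without CD28 KO number 1 or without WT number 1, 2 genes were called, mt-Nd1 and 1 other; without WT number 1, mt-Nd1 fell by 0.66 (adjusted p = 0.0041). Of the 13, mt-Nd1 alone was called in each of the 4 fits that left out 1 of these libraries, with fold changes of -0.66 to -1.03. WT number 1 held 26.4 M counts at day 1 and WT number 4 held 10.4 M. The CD28 KO libraries held 15.7 and 18.9 M, so neither WT library matched them in depth. The fold change of mt-Nd1 was -1.03 against WT number 1 alone and -0.66 against WT number 4 alone. Against WT number 1 alone, the median log2 fold change of the 13 mRNAs was -0.46. In such a fit the spread comes from the other groups, and the lone WT library is assumed to vary like them.

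Of 71 nuclear genes of the chain, 67 fell (median -0.91, against -0.39 for the 13 mRNAs and 0.02 for all genes), where 24.7% of all genes were lower, including all 9 of complex III, all 11 of complex IV, all 15 of the ATP synthase and 32 of 36 of complex I. Against WT number 1 alone, 65 of the 71 fell. Uqcrfs1, the iron-sulfur protein of complex III, fell by 1.20 (SE 0.13, edgeR adjusted p = 6.68e-08), Cox5a of complex IV by 1.70 (SE 0.22, adjusted p = 1.57e-06), Ndufs8 of complex I by 1.29 (SE 0.16, adjusted p = 4.91e-07) and Atp5c1, the gamma subunit of the ATP synthase, by 1.07 (SE 0.11, adjusted p = 3.58e-08). Of the 20 genes for mitochondrial RNA processing, stability and decay, 16 fell and 0 rose. They included Supv3l1 (-1.33, SE 0.19, adjusted p = 3.8e-06) and Pnpt1 (-1.02, adjusted p = 2.3e-05), which form the mitochondrial RNA degradosome, Slirp (-0.73), which binds mitochondrial mRNAs, and Elac2 (-1.14), which cuts the 3' ends of tRNAs out of precursors. Of 16 transcription and replication genes 5 fell, among them Tfam (-0.49), the factor that packs mitochondrial DNA and starts its transcription, and Mgme1 (-1.29). Of 16 genes for rRNA modification and ribosome assembly 4 fell and 1 rose, of 17 mitochondrial aminoacyl tRNA synthetase genes 5 fell and 1 rose, and of 10 biogenesis regulators 5 fell and 2 rose, with Myc at -1.62 and Pprc1 at -0.92. All 10 B cell markers were detected, and their sum was 75.3 and 108 CPM in CD28 KO and 8.11 and 23.8 CPM in WT. Plasma cell markers summed to 55.4 and 58.4 CPM in CD28 KO and 116 and 134 CPM in WT, and NK cell markers to at most 74.3 CPM against 89.3 and 110.3 CPM. The part of these cells in the differences was not tested.

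The other genotypes differed little from WT at day 1, and all 5 comparisons share the 2 WT libraries. In DKI, mt-Nd1 was the 1 gene called (background 26%, with 15.8% lower). It was at 1522, 1578 and 1561 CPM, below both WT values, and fell by 0.38 (SE 0.13, edgeR adjusted p = 0.0266). WT number 4, at 1803 CPM, was as shallow as DKI, and against it alone, with the spread taken from the other groups, mt-Nd1 had a fold change of -0.17 (SE 0.15, adjusted p = 0.585) and 0 mRNAs were called, where 3.52% of all genes were. With the depth batch as a term 0 mRNAs were called, and leaving out any 1 DKI library, or WT number 1, also left 0. Nuclear subunits fell in DKI for 55 of 71 genes (median -0.53), 14 did with the depth batch as a term, and 3 did against WT number 4 alone. In Ars2 KO, CD28 AYAA and CD28 Y170F, 0 of the 13 mRNAs were called by edgeR, DESeq2 or limma-voom, at backgrounds of 0.399, 3.61 and 0.0547%. At an unadjusted edgeR p under 0.05 there were 1, 0 and 0. Summed with the copies, 0 were called in each as well, at backgrounds of 0.399, 3.62 and 0.0547%. mt-Nd1, 1 of the genes lower in CD28 KO, stood at 1801, 2047 and 2368 CPM in Ars2 KO. It stood at 1673, 2136 and 1975 in CD28 AYAA and 1773, 1566 and 1889.9 in CD28 Y170F. These values overlap with WT.

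**Figure D4:**
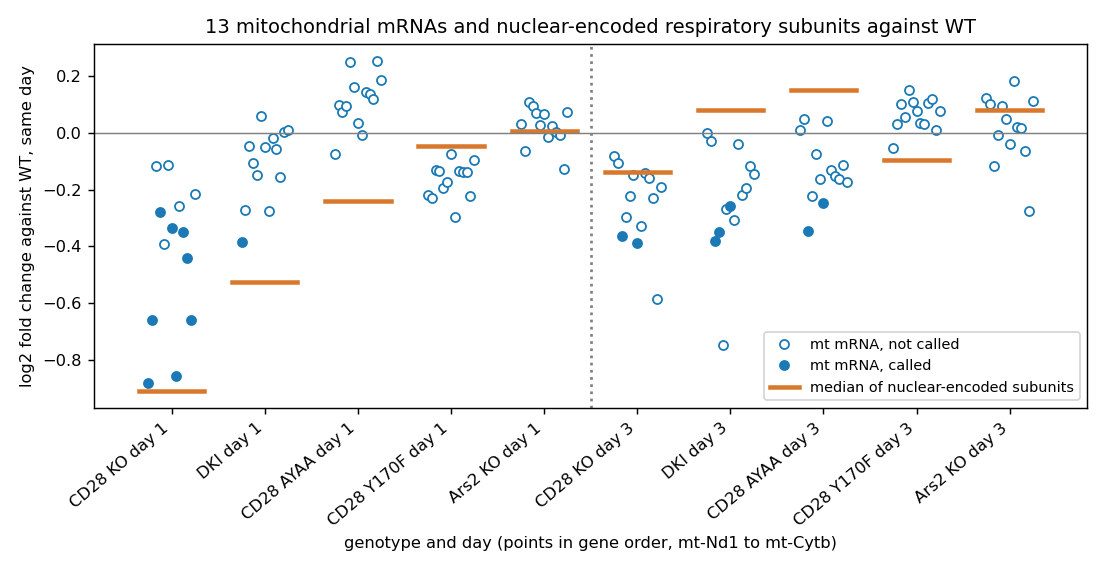
Log2 fold change against WT of the same day (vertical axis) for the 13 mRNAs with nuclear copies added, 1 point per gene in genome order, for 5 genotypes at day 1 (left) and day 3 (right). Filled points passed the test (8 in CD28 KO at day 1), and bars give the median of the 71 nuclear-encoded subunits, -0.91 in that comparison.

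At day 3 the 1 mRNA called as deposited, in 3 of the genotypes, was mt-Co1, the catalytic core of cytochrome c oxidase. It stood at 9172 and 8948 CPM in WT. It stood at 7027 and 7051 in the libraries labelled CD28 KO, 6951, 6788 and 7127 in DKI and 6931, 7081 and 7388 in CD28 AYAA, all below both WT libraries. The Ars2 KO libraries, at 8228, 8249 and 8597 CPM, also lay below both. mt-Co1 fell by 0.37 in CD28 KO (SE 0.09, edgeR adjusted p = 0.00543), by 0.38 in DKI (SE 0.08, adjusted p = 0.00137) and by 0.35 in CD28 AYAA (SE 0.08, adjusted p = 0.00378), and in each it was the 1 of 13 mRNAs called, at backgrounds of 20, 23.4 and 21.7%, with 11.5, 13.1 and 11.3% lower. The 3 comparisons share the WT libraries, so they are not independent. Set against 1 WT library alone, the one of like depth, with the spread taken from the other groups, the fold changes were -0.38 (adjusted p = 0.0276), -0.37 (adjusted p = 0.0136) and -0.36 (adjusted p = 0.0332), at backgrounds of 10.4, 18.3 and 6.91%. On total counts without TMM, mt-Co1 in CD28 KO differed by -0.24 (adjusted p = 0.0683). In Ars2 KO the fold change of mt-Co1 was -0.12 (SE 0.08, adjusted p = 0.389). In CD28 Y170F mt-Co1 was at 8853, 10263 and 10045 CPM, a range that holds both WT values, and was not called. In these genotypes 0 mRNAs were called by edgeR, DESeq2 or limma-voom, at backgrounds of 12.9 and 0.0273%, with 1 and 0 at an unadjusted edgeR p under 0.05.

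Other complex IV genes were lower once the copies were added. Summed mt-Co3 was at 3095 and 3012 CPM in WT, 2468 and 2202 in CD28 KO, 2559, 2376 and 2733 in DKI and 2493, 2535 and 2688 in CD28 AYAA. It fell by 0.39 (edgeR adjusted p = 0.00174), 0.26 (adjusted p = 0.0149) and 0.25 (adjusted p = 0.0203), at backgrounds of 20.1, 23.4 and 21.7%. Summed mt-Co2 fell in DKI (-0.35, adjusted p = 0.0097) and just missed the threshold in CD28 KO (-0.30, adjusted p = 0.0505). The sum of all mitochondrial mRNAs with copies was 28208 and 26848 CPM in WT at day 3. It was 22929 and 22743 in CD28 KO, 21637 to 24635 in DKI and 22204 to 25395 in CD28 AYAA. mt-Nd4, mt-Nd5 and mt-Cytb also lay below WT without overlap in these genotypes, but were not called. The share of all genes without overlap was not counted. mt-Nd4 and mt-Nd5 had no overlap with WT in CD28 Y170F either, where 0.0273% of all genes were called. mt-Nd1 at day 3 was at 1815 and 1841 CPM in CD28 KO, between the WT values of 2130.5 and 1743. Nuclear subunits did not follow mt-Co1: of 71, CD28 KO had 1 higher and 8 lower (median -0.14), DKI 3 higher and 4 lower (0.08) and CD28 AYAA 6 higher and 1 lower (0.15). Genes for mitochondrial RNA processing were higher in part, with 8 up and 1 down of 20 in CD28 KO, 12 and 0 in DKI and 10 and 1 in CD28 AYAA. Of all genes, 20, 23.4 and 21.7% were called in these 3 comparisons, with 11.5, 13.1 and 11.3% lower. In DKI, Fastkd1 rose by 1.39, Fastkd2 by 0.99 and Fastkd5 by 0.76, members of a family that binds and processes mitochondrial RNA. In Ars2 KO 8 of these 20 rose, where 12.9% of all genes were called in either direction. The sum of 5 NK cell markers was 333 to 419 CPM in CD28 KO, 281 to 313 in DKI and 271 to 400 in CD28 AYAA at day 3, against 75.9 and 139 in WT and 144 to 336 in Ars2 KO. Plasma cell markers summed to 146 to 201 CPM in CD28 KO, 253 to 265 in DKI, 240.0 to 258 in CD28 AYAA and 125 to 192 in Ars2 KO, against 71.9 and 109 in WT. T cell markers summed to 2477 to 2499.5 CPM in CD28 KO, 2733 to 2956 in DKI, 2806 to 3011 in CD28 AYAA and 2573 to 2662 in Ars2 KO, against 3317 and 3364 in WT. The part of these shifts in the mt-Co1 differences was not tested.

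**Figure D5:**
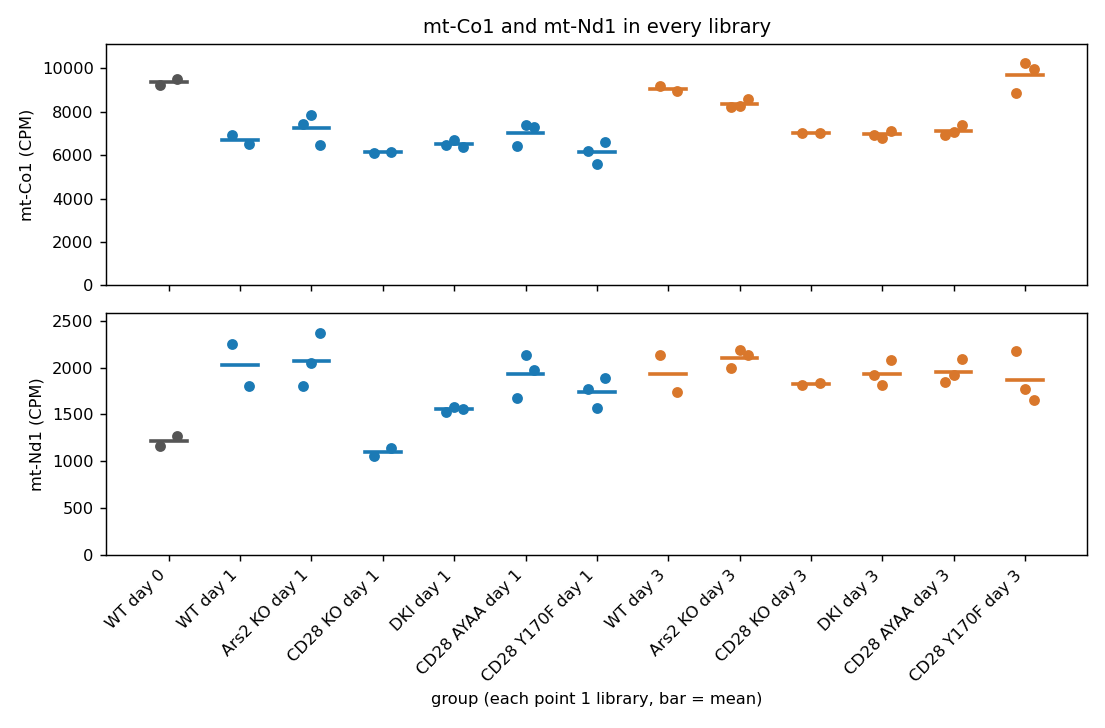
Levels of mt-Co1 (above) and mt-Nd1 (below), gene rows as deposited, in every library (CPM), by group; each point is 1 library and bars are group means. At day 3 the libraries of CD28 KO, DKI, CD28 AYAA and, by less, Ars2 KO lie below WT in mt-Co1, and at day 1 those of CD28 KO and DKI lie below WT in mt-Nd1.

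Between day 1 and day 3 each genotype changed few of the 13 mRNAs, though 23.6 to 47.4% of all genes were called. In WT, mt-Co1 rose by 0.43 (SE 0.09, edgeR adjusted p = 0.00067, background 29.5%, with 15.5% higher), from 6923 and 6513 to 9172 and 8948 CPM. In CD28 Y170F, mt-Co1 was at 6216, 5589 and 6600.3 CPM at day 1 and 8853, 10263 and 10045 at day 3, and rose by 0.66 (SE 0.07, adjusted p = 1.13e-07), with mt-Nd5 (0.29, adjusted p = 0.0194), mt-Cytb (0.31, adjusted p = 0.0203) and mt-Nd4 (0.26, adjusted p = 0.0377), at a background of 40.3%, with 21.1% higher. Of these 4 calls 1 was left, mt-Co1, without number 2 at day 1 or at day 3. Summed mt-Co2, mt-Atp6 and mt-Co3 rose there as well, by 0.49, 0.45 and 0.40. In Ars2 KO, mt-Co1 rose by 0.21 (SE 0.07, adjusted p = 0.0459, background 23.6%, with 13.3% higher), a call lost on total counts without TMM (0.13, adjusted p = 0.234), with the replicate block and without any 1 of the 6 libraries except number 2 at day 1. In the libraries labelled CD28 KO, mt-Nd1 rose by 0.73 (SE 0.14, adjusted p = 0.000142, background 45.6%, with 25% higher), from 1058 and 1144 to 1815 and 1841 CPM. In DKI, mt-Nd1 rose by 0.32 (SE 0.11, adjusted p = 0.0239, background 47.4%, with 23.7% higher), from 1522, 1578 and 1561 to 1917, 1813 and 2077 CPM, and on total counts the change was 0.25 (adjusted p = 0.0611). That call was also lost without number 1 or 3 at day 1 or number 3 at day 3. In CD28 AYAA, mt-Nd4 fell by 0.27 (SE 0.10, adjusted p = 0.0283) and mt-Nd5 by 0.25 (SE 0.10, adjusted p = 0.0346), at a background of 45.4%, with 23.7% lower; mt-Nd5 was at 1905, 2465 and 2274 CPM at day 1 and 1686, 1910.3 and 1974 at day 3, so the days overlapped. With the replicate number as a block (background 46%), 4 fell, mt-Nd4, mt-Nd5, mt-Cytb (-0.22) and mt-Nd4l (-0.64), and with RLE size factors 0 did. Without number 2 or 3 at day 1, or number 1 or 2 at day 3, 0 were called.

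Nuclear subunits were compared between the days as well. In CD28 KO 69 of 71 rose (median 1.02), in DKI 68 (0.71) and in CD28 AYAA 63, with 1 lower (0.55). In WT 13 rose and 2 fell (median 0.18), and in Ars2 KO 21 rose (0.21). In CD28 Y170F 17 rose and 3 fell (0.11). Of all genes, 25% were higher in CD28 KO, 23.7% in DKI, 15.5% in WT, 13.3% in Ars2 KO and 21.1% in CD28 Y170F. The numbers that rose in WT and CD28 Y170F were thus near the background. Called in either direction were 29.5% in WT, 40.3% in CD28 Y170F and 45.4% in CD28 AYAA. Ndufs8 in CD28 KO rose by 1.40 and Atp5c1 by 1.12. RNA processing genes went both ways, 14 up and 2 down of 20 in CD28 KO and 12 and 0 in DKI, but 0 up and 10 down in WT (median -0.42) and 0 up and 15 down in CD28 Y170F (median -0.60). In CD28 Y170F these included Lrpprc (-0.92), which stabilises mitochondrial mRNAs together with Slirp, and Fastkd2 (-1.17). Myc fell there by 1.73 and Pprc1 by 2.18.

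CD28 AYAA and CD28 Y170F change different motifs of the CD28 tail, a proline motif and a tyrosine motif, and could be compared directly. At day 1, 0 mRNAs were called by edgeR, DESeq2 or limma-voom (background 4.35%), and 6 were higher in CD28 AYAA at an unadjusted edgeR p under 0.05. With the replicate number as a block, which paired these samples at day 1, 8 were higher in CD28 AYAA at a background of 38.2%: mt-Nd2 (0.31), mt-Co1 (0.19), mt-Atp8 (0.44), mt-Co3 (0.65), mt-Nd4 (0.26), mt-Nd5 (0.25), mt-Nd6 (0.47) and mt-Cytb (0.28). At day 3, without the block, the direction was the opposite, with 3 lower in CD28 AYAA (background 36.8%, with 19.2% lower). mt-Co1 was at 6931, 7081 and 7388 CPM in CD28 AYAA and 8853, 10263 and 10045 in CD28 Y170F, without overlap, and was lower by -0.44 (SE 0.07, edgeR adjusted p = 5.26e-05). mt-Nd5 differed by -0.28 (SE 0.10, adjusted p = 0.0237) and mt-Nd4 by -0.26 (SE 0.10, adjusted p = 0.0435). Without CD28 AYAA number 1, or CD28 Y170F number 2 or 3, mt-Co1 was the 1 gene called. With the block, 0 mRNAs were called at day 3 (background 15.3%), where the numbers were not taken to pair. Whether the difference between the alleles itself changed with the day was not tested. Nuclear subunits at day 3 were higher in CD28 AYAA for 27 of 71 genes and lower for 1 (median 0.26), and 15 of 20 RNA processing genes were higher, among them Tbrg4 (1.28), another member of the Fastk family, with Pprc1 at 2.07 and Myc at 1.45.

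Finally, the genotype effects at the 2 days were set against each other by an interaction term. For CD28 KO the effect on mt-Nd1 was less negative at day 3 than at day 1, by 0.80 (SE 0.20, edgeR adjusted p = 0.0024, background 35.3%, with 20.5% higher); without WT number 1 at day 1 it was 0.56 (adjusted p = 0.0509). For mt-Co1 the effect was more negative at day 3 in DKI, by -0.34 (SE 0.12, adjusted p = 0.0297, background 32.5%, with 14.7% lower), and in CD28 AYAA, by -0.41 (SE 0.12, adjusted p = 0.0124, background 24.4%, with 12.1% lower). The DKI call was lost without WT number 4 at day 1, WT number 1 or 4 at day 3 or DKI number 2 at either day, on total counts without TMM (-0.25, adjusted p = 0.132) and without the filter (-0.32, adjusted p = 0.104). On total counts the gene called for DKI was mt-Nd1, in the other direction (0.48, adjusted p = 0.0334). The CD28 AYAA call was lost without the filter (-0.34, adjusted p = 0.0832) and without WT number 4 at day 1 (-0.32, adjusted p = 0.079). In Ars2 KO and CD28 Y170F 0 mRNAs had an interaction by edgeR, DESeq2 or limma-voom, and 0 at an unadjusted edgeR p under 0.05, at backgrounds of 3.68 and 0%. Nuclear subunits had an interaction in the direction of mt-Nd1 for 57 of 71 genes in CD28 KO (median 0.77), 47 in DKI (0.54) and 16 in CD28 AYAA (0.38). The 13 mitochondrial mRNAs had a median interaction of 0.17, -0.16 and -0.36 in the same genotypes.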

How the data were processed

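Expected counts per gene were deposited by the authors as 1 table for 34 libraries. Per the labels' protocols, total RNA was depleted of rRNA, made into dUTP-marked libraries and read as 100-base pairs. The tools STAR, RSEM, limma, FastQC and bcl2fastq 2.20 served for processing on builds mm10 and GRCm38, per the submitters' processing notes; the annotation release and the strand setting are not given in the sources used here. From 83.7 to 90.8% of a library's values were whole numbers. Gene IDs matched GENCODE M21 in 48144 rows (99.2%), which gave the symbols, positions and transcript sequences.

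After rounding, counts were tested with edgeR 4.0.16 (R 4.3.3) by quasi-likelihood F tests, 1 mean per group over all libraries, TMM and filterByExpr, which left 18292 genes and 17 of the 37 members (13 mRNAs, both rRNAs, mt-Ts1 and mt-Tn). Genes were called at a Benjamini-Hochberg adjusted p under 0.05 over all genes. The SE is the log2 fold change over the square root of F. CPM values use TMM library sizes, and per kb values divide by transcript length. Sums over members have no test. The fit was tested on simulated data. Total counts were 8.35 to 47.8 M per library.

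The members and lists were chosen with earlier results of these data known. All 37 members could be named in any comparison, and of each other list up to 4 called members with the smallest p. The 2 columns of CD28 KO at day 3 could be matched to that group alone, since titles and columns differ in number. Replicate numbers were taken to pair samples where there were at least 3 same-number pairs and each correlated above 0.1. The deviations from group means correlated at 0.37, 0.37 and 0.65 between CD28 AYAA and CD28 Y170F at day 1, and at 0.41, 0.16 and 0.55 between the days of CD28 AYAA, so those numbers were taken to pair; this rests on the correlations, not on the labels.

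Alternatives were RLE size factors, TMM on nuclear protein-coding genes, total counts, no filter, DESeq2 1.42.0, limma-voom (limma 3.58.1), only the groups compared, the depth batch as a term (8 libraries under 12 M, a split from the counts that the labels do not name), the replicate block, each library left out, and, added after the data were seen, the sum with nuclear copies. Plots were drawn with matplotlib 3.10.9 and tables made with pandas 2.3.3 and numpy 2.4.6 under Python 3.11.15.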

Additional observations from a re-analysis of the deposited data

Results flagged for a closer look

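Interaction tests found 3 genotype effects on mitochondrial mRNAs that differed between day 1 and day 3. The effect of the CD28 KO label on mt-Nd1 was higher at day 3 by 0.80 (log2, SE 0.20, edgeR adjusted p = 0.0024). The effect of DKI on mt-Co1 was lower at day 3 by -0.34 (SE 0.12, adjusted p = 0.0297), and that of CD28 AYAA on mt-Co1 by -0.41 (SE 0.12, adjusted p = 0.0124). The WT libraries are shared by all 3, and each call was lost when 1 WT library of day 1 was left out, number 1 for mt-Nd1 and number 4 for mt-Co1. Both mt-Co1 calls were also lost without the filter on low counts (-0.32, adjusted p = 0.104, and -0.34, adjusted p = 0.0832), and the DKI call on total counts without TMM (-0.25, adjusted p = 0.132).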

How the results depend on the processing

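Among alternatives on all libraries, 184 of 232 counts of called mRNAs stayed within 1.5 times the reported count, 47 moved and 1 reversed. The ratios of levels between groups, given below, are not among these. Of 408 recomputed calls of single genes 362 were kept, 46 lost and 0 reversed. With 1 library left out, 108 of 148 counts of called mRNAs stayed so, 37 moved and 3 reversed. Of 217 recomputed calls of single genes 156 were kept, 61 lost and 0 reversed. Values below are numbers of the 13 mRNAs called, reported then alternative; the cause of each move was not tested, except that settings on fewer groups or libraries test on fewer samples. With DESeq2, CD28 KO against WT at day 3 and CD28 KO over time went from 1 to 2 and CD28 AYAA over time from 2 to 1, and with RLE the last went to 0. With TMM on nuclear protein-coding genes, Ars2 KO and DKI over time went from 1 to 0 and CD28 AYAA from 2 to 4. With the depth batch as a term, DKI at day 1 went from 1 to 0 and DKI over time from 1 to 2. With limma-voom, DKI at day 3 went from 1 to 2. Without the filter, day 3 counts against WT were 1 for Ars2 KO (from 0), 2 for CD28 KO and 3 for DKI, counts over time were 2 in WT, 0 in Ars2 KO, 3 in CD28 KO, 2 in DKI and 1 in CD28 AYAA, and the CD28 AYAA interaction had 0. With only the groups compared, CD28 KO at day 1 had 3 (from 6), DKI at day 3 had 2, counts over time were 0 in WT, 0 in Ars2 KO, 5 in CD28 KO, 3 in DKI and 2 in CD28 Y170F (from 4), CD28 AYAA against CD28 Y170F at day 3 had 1 (from 3) and the CD28 KO interaction had 2. With the replicate block, counts over time were 2 in WT, 0 in Ars2 KO, 3 in DKI and 4 in CD28 AYAA, and CD28 AYAA against CD28 Y170F had 8 at day 1 (from 0) and 0 at day 3 (from 3). By the rule for 3 or more pairs, the numbers pair CD28 AYAA over time and the 2 alleles at day 1. WT over time has 2 pairs (correlation 0.55), too few for that rule. Elsewhere the lowest same-number correlation was -0.11 in Ars2 KO, -0.06 in DKI, -0.14 in CD28 Y170F and -0.21 between the alleles at day 3. No paired analysis of a genotype against WT was possible because the groups share only number 1. Summed with nuclear copies, day 3 counts against WT were 2 in CD28 KO, 3 in DKI and 2 in CD28 AYAA, counts over time 3 in WT, 2 in CD28 KO and 7 in CD28 Y170F, and CD28 AYAA against CD28 Y170F at day 3 had 5. On total counts without TMM, CD28 KO at day 3 had 0, counts over time were 0 for Ars2 KO and DKI, 4 for CD28 AYAA and 1 for CD28 Y170F, the alleles at day 3 had 1, and the DKI interaction reversed, with 1 higher gene, mt-Nd1 (0.48). This scaling moved the median of all genes by 0.289 for WT at day 1 against day 0. The ratio of the highest to the lowest group in the level of the 13 gene rows as deposited was 1.53, and 1.51 with copies added, 1.31 on total counts and 1.26 on nuclear protein-coding counts. Leaving out 1 library gave 2 to 5 calls for CD28 KO at day 1, 0 to 1 for DKI at day 1, 0 to 1 for Ars2 KO, 1 to 3 for DKI and 1 to 2 for CD28 AYAA at day 3, 8 to 9 and 7 to 9 for WT at days 1 and 3 against day 0, and over time 1 to 2 in WT, 0 to 1 in Ars2 KO, 0 to 3 in DKI (reversed at 1 without number 1 at day 1 and at 2 without number 3 at day 3), 0 to 3 for CD28 AYAA and 1 to 5 for CD28 Y170F. It gave 1 to 4 for the alleles at day 3, and 0 to 2, 0 to 3 (reversed at 1 without WT number 4 at day 1) and 0 to 1 for the interactions of CD28 KO, DKI and CD28 AYAA. The same ratio over groups ran from 7.85 to 13.7 for rRNA share (8.5 with all libraries) and from 5.14 to 15.98 for tRNA level (7.22), the highest without DKI number 3 at day 3. Depth limits the tRNA genes, with 1 to 14 counts in each library under 12 M.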

Other observations

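mt-Atp8, the short accessory subunit gene of the ATP synthase, was the mRNA with the widest spread inside DKI at day 3 when nuclear copies were added to the other genes. It stood at 124, 71.9 and 299 CPM in libraries 1, 2 and 3, against 309 and 245 CPM in WT, and was not called. All 3 DKI libraries there were under 12 M counts. In the same libraries mt-Nd1 stood at 1917, 1813 and 2077 CPM and mt-Co1 at 6951, 6788 and 7127 CPM.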
